A study of Homo sapiens with 15 samples.

Results

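Distal poly(A) site use was compared directly between HEK293T cells with a short hairpin RNA against PABPN1 (shPABPN1, 2 libraries) and HEK293T cells with a short hairpin RNA against SF3B4 (shSF3B4, 2 libraries). The genes compared were those with a value in all 4 of these libraries, which were 11920 of the 13056 genes in the table, and the 4 libraries were part of 15. HEK293T is a human embryonic kidney cell line that carries the SV40 large T antigen. The other groups were shHDAC1, shPCBP2, shU2AF2 and shZNF384 with 2 libraries each, and shControl, labelled wild type, with 3 libraries. They entered only as a shared estimate of spread and as points of reference. All 15 libraries came from the same cell line, the genotype labels give 1 knocked-down gene per group, and neither hairpin sequences nor the time after knockdown are given in the sources used here.

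Most human genes can be cut and polyadenylated at more than 1 place in the last exon, which gives messenger RNAs with a short or a long 3' untranslated region. The cleavage machinery recognises a poly(A) signal, most often AATAAA in the DNA, a short way upstream of the cut. PABPN1 is the nuclear poly(A)-binding protein, which coats the growing tail and stimulates poly(A) polymerase. SF3B4 is a subunit of SF3b, the part of the U2 snRNP that holds the branch point of an intron during splicing. The value given per gene is PDUI, an index of distal poly(A) site usage, as a fraction. A PDUI near 1 stands for transcripts that nearly all end at the distal site, and a PDUI near 0 for transcripts that nearly all end at the proximal site.

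Mean PDUI over the 11920 genes was 0.538 and 0.544 in the shPABPN1 libraries, 0.566 and 0.574 in the shSF3B4 libraries, and 0.525, 0.564 and 0.564 in the shControl libraries. Both shPABPN1 libraries lay below both shSF3B4 libraries, while the shControl libraries overlapped the range of shPABPN1 because of shControl replicate 1. The difference of the group means was −0.0291, and an exact two-sided permutation test gave p = 0.333, the smallest p that 2 libraries against 2 allow. Between 1.37% and 4.49% of genes lacked a value in a library. The depth of the libraries is unknown, because fractions were deposited without read counts. PDUI does not measure the amount of RNA, so neither the strength of the knockdowns nor the identity of the cells could be checked against these values, and only 6 of 24 markers of other cell types were in the table. Nuclear RNA and total RNA are both named in the labels, and a suffix, nuc, stands in the library names of shControl but not of the knockdowns.

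Gene by gene, use of the distal site was lower in shPABPN1 than in shSF3B4 for 61.2% of genes and higher for 31.4%, before any test. The median difference, shPABPN1 minus shSF3B4, was −0.025, and the central 90% of genes ran between −0.21 and 0.175. The median gap between the replicates of a group was 0.04 in shPABPN1 and 0.04 in shSF3B4, against a median absolute difference between the groups of 0.065. Across genes, which are not independent replicates, r was 0.928 between the shPABPN1 libraries and 0.932 between the shSF3B4 libraries, and 0.882 to 0.897 between libraries of different groups.

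Of the 11920 genes, 1209 (10.1%) were called by limma at an adjusted p under 0.05, with 563 (4.72%) higher and 646 (5.42%) lower in shPABPN1. The called difference reached at least 0.1 in 844 genes (7.08%), 414 higher and 430 lower. At 0.3 or more the counts were 101 higher and 68 lower, and at 0.5 or more 13 and 12. Called differences were as small as 0.009, with a median of 0.145. Both shPABPN1 values lay above both shSF3B4 values in 14.2% of all genes and below both in 36.0%. The balance of directions depended on the scale of the libraries. As deposited, 46.6% of the called genes were higher in shPABPN1, and with every library centred on its median 83.5% were, 695 higher and 137 lower.

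**Figure D1:**
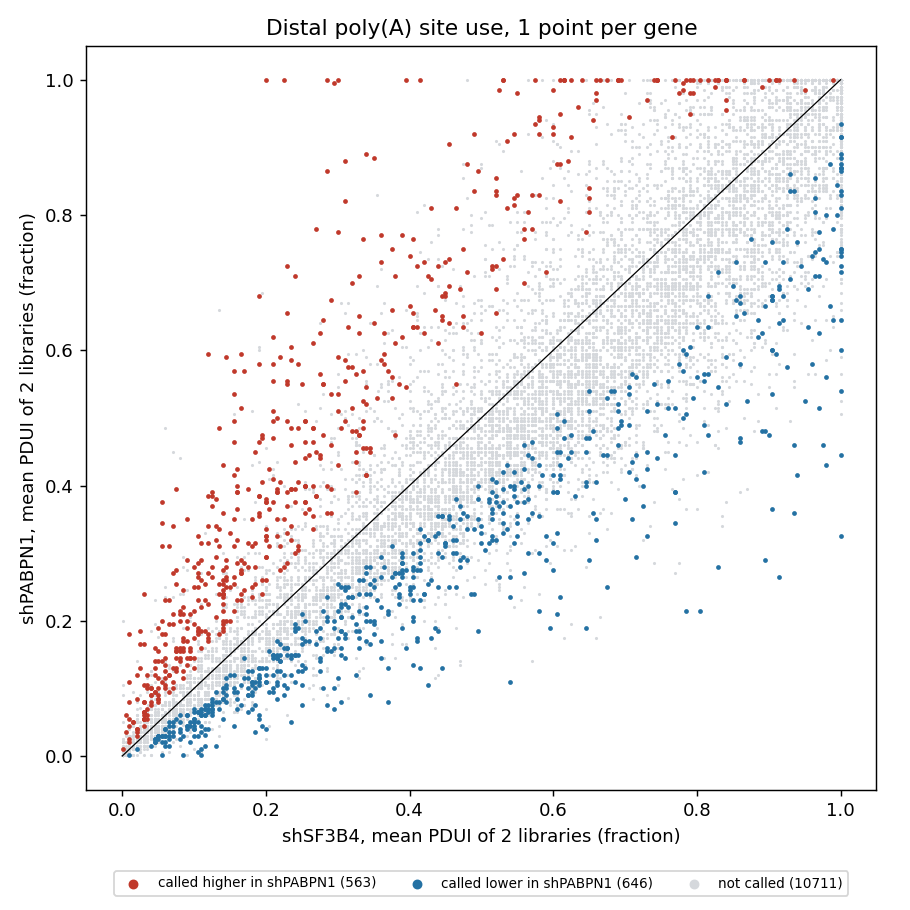
Mean PDUI of each of the 11920 genes in shPABPN1 (vertical axis, fraction) against shSF3B4 (horizontal axis, fraction), 1 point per gene and the mean of 2 libraries on each axis, with the diagonal of equal values. The 563 genes called higher in shPABPN1 lie above the line and the 646 called lower below it, and both sets reach differences over 0.5.

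The estimate of spread came from all 15 libraries, and the calls rested on it. With only the 4 libraries in the fit no gene was called by limma, although 2847 genes had an unadjusted p under 0.05, against 3124 (26.2%) with all libraries. Leaving out 1 library gave 747 calls without shPABPN1 replicate 1, 848 without shPABPN1 replicate 2, 710 without shSF3B4 replicate 1 and 712 without shSF3B4 replicate 2. Of these calls 634, 684, 604 and 592 were among the 1209. Without shControl replicate 1, whose mean stood apart from the other control libraries, 1705 genes were called.

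Called genes were ranked by difference where the last exon overlaps no other gene. Those with the largest shift to the distal site in shPABPN1 relative to shSF3B4 came from many different functions. They included the zinc finger gene ZNF264, the chromatin reader PHF21A, the ubiquitin-binding protein CCDC50, the fatty acid elongase ELOVL6 and the steroid reductase SRD5A1. In the 12 genes of this set, all shPABPN1 values were over 0.5 and all shSF3B4 values under 0.5. The shControl values differed in where they lay between the 2 knockdowns, and for many of these genes they stood close to shSF3B4.

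ZNF264 had a PDUI of 1 and 1 in shPABPN1, against 0.37 and 0.42 in shSF3B4 and 0.96, 0.75 and 0.82 in shControl. The direct difference was 0.605 (SE 0.071, adjusted p = 0.00148). All shControl libraries were nearer to shPABPN1, and the difference from shControl, which both knockdowns share, was 0.157 in shPABPN1 (adjusted p = 0.249) and −0.448 in shSF3B4 (adjusted p = 0.00513). PHF21A, a subunit of a histone demethylase and deacetylase complex, stood at 0.95 and 0.78 in shPABPN1 and 0.29 and 0.28 in shSF3B4, with 0.53, 0.57 and 0.64 in shControl. Here the control lay between the knockdowns with no overlap on either side, and the direct difference was 0.58 (SE 0.0634, adjusted p = 0.000641).

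ELOVL6, which elongates saturated and monounsaturated fatty acids, stood at 0.74 and 0.71 in shPABPN1, 0.22 and 0.24 in shSF3B4 and 0.29, 0.31 and 0.27 in shControl. Its difference of 0.495 had an SE of 0.0271 (adjusted p = 1.4e-05). SRD5A1, a steroid reductase of the androgen pathway, stood at 0.66 and 0.53 in shPABPN1, 0.11 and 0.13 in shSF3B4 and 0.2, 0.2 and 0.21 in shControl, a direct difference of 0.475 (SE 0.0343, adjusted p = 6.35e-05). In both genes the shSF3B4 values lay just under the shControl values and the shPABPN1 values far above them. The shPCBP2, shU2AF2 and shZNF384 libraries also lay above shControl in both, while shHDAC1 did not. For SRD5A1 they had 0.41 and 0.38, 0.51 and 0.49, and 0.45 and 0.44, in that order. Against the mean of the other 4 knockdowns, SRD5A1 differed by 0.215 in shPABPN1 and −0.26 in shSF3B4. ELOVL6 differed from that mean by 0.331 in shPABPN1 and −0.164 in shSF3B4. CCDC50 stood at 1 and 0.78 in shPABPN1 and 0.35 and 0.33 in shSF3B4, with 0.39, 0.37 and 0.41 in shControl (difference 0.55, adjusted p = 0.000968). The mitochondrial membrane protein gene TMEM65 stood at 0.77 and 0.59 in shPABPN1 and 0.2 and 0.18 in shSF3B4, with 0.24, 0.31 and 0.23 in shControl (difference 0.49, adjusted p = 0.000473). The shPCBP2 libraries had 0.62 and 0.62 for TMEM65, inside the shPABPN1 range, and the shHDAC1 libraries 0.21 and 0.2.

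MCTS1, a factor in translation re-initiation, and SUGT1, a co-chaperone of HSP90, had shControl values beside or below those of shSF3B4. MCTS1 stood at 0.85 and 0.57 in shPABPN1, 0.23 and 0.25 in shSF3B4 and 0.18, 0.2 and 0.14 in shControl (direct difference 0.47, adjusted p = 0.00606). SUGT1 stood at 0.51 and 0.68 in shPABPN1, 0.18 and 0.15 in shSF3B4 and 0.17, 0.12 and 0.1 in shControl (direct difference 0.43, adjusted p = 0.00325). The Golgi glycoprotein gene GLG1 stood at 0.99 and 0.82 in shPABPN1 and 0.47 and 0.44 in shSF3B4, with 0.72, 0.47 and 0.46 in shControl, so that 1 control library stood apart from the other two. The remaining genes of this set were NIPSNAP3B (difference 0.51, adjusted p = 0.00418), FRA10AC1 (0.535, adjusted p = 0.00775) and the non-coding AC067750.1 (0.57, adjusted p = 0.0282). Leaving out 1 of the 4 libraries ended the call of AC067750.1 in all 4 cases (adjusted p = 0.0929 to 0.113). The call of GLG1 (adjusted p = 0.0115 with all libraries) ended in 3 cases, at 0.076 without shPABPN1 replicate 1, 0.0525 without shSF3B4 replicate 1 and 0.0661 without shSF3B4 replicate 2, and that of FRA10AC1 in 1, at 0.0513 without shSF3B4 replicate 2.

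The other direction was ranked under the same restriction. The genes with the most distal use in shSF3B4 relative to shPABPN1 included the growth factor receptor EGFR and several regulators of transcription. These were the forkhead factor FOXD2, the homeobox factor HMX2, the neural zinc finger factor MYT1 and AHRR, which represses the aryl hydrocarbon receptor. EGFR stood at 0.48 and 0.24 in shPABPN1, 0.88 and 0.99 in shSF3B4 and 0.37, 0.27 and 0.35 in shControl. Its direct difference was −0.575 (SE 0.075, adjusted p = 0.00161), and its last exon spans 55205256 to 55211628 of chromosome 7. The shPABPN1 and shControl values overlapped, while the shSF3B4 values stood far above both. The shU2AF2 libraries, with a hairpin against another 3' splice site factor, had EGFR values of 0.75 and 0.64.

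FOXD2 showed the reverse arrangement, in that shSF3B4 lay with the control and shPABPN1 apart. It stood at 0.44 and 0.45 in shPABPN1, 1 and 1 in shSF3B4 and 0.99, 0.92 and 0.9 in shControl, a direct difference of −0.555 (SE 0.0263, adjusted p = 1.4e-05). The difference from shControl was −0.492 in shPABPN1 (adjusted p = 3.4e-05) and 0.0633 in shSF3B4 (adjusted p = 0.21). Of the other knockdowns, shPCBP2 had FOXD2 values of 0.57 and 0.58 and shZNF384 0.82 and 0.79, while shHDAC1 and shU2AF2 had 1 in every library. AHRR stood at 0.46 and 0.46 in shPABPN1, 0.96 and 0.91 in shSF3B4 and 0.51, 0.46 and 0.52 in shControl, a direct difference of −0.475 (adjusted p = 6.35e-05), so that the control lay with shPABPN1.

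HMX2 was below the control in both knockdowns. Its values were 0.15 and 0.23 in shPABPN1, 0.64 and 0.65 in shSF3B4 and 0.92, 0.82 and 0.93 in shControl, with a direct difference of −0.455 (adjusted p = 0.00394). REM2, a small GTPase of the RGK family, stood at 0.44 and 0.48 in shPABPN1, 0.95 and 1 in shSF3B4 and 0.69, 0.64 and 0.6 in shControl, with the control between the knockdowns (direct difference −0.515, adjusted p = 0.00195). AC142472.1 stood at 0.36 and 0.22 in shPABPN1, 1 and 0.79 in shSF3B4 and 0.38, 0.54 and 0.36 in shControl (direct difference −0.605, adjusted p = 0.00163).

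The other 6 genes of this set were called with less margin, and each lost its call whichever of the 4 libraries was left out. CAMKMT, the calmodulin lysine methyltransferase, had 0.34 and 0.49 in shPABPN1 and 0.98 and 0.9 in shSF3B4 (adjusted p = 0.0353, or 0.0709 to 0.173 without a library). MYT1 had 0.23 and 0.33 in shPABPN1 and 0.82 and 0.84 in shSF3B4, with shControl spread over 0.95, 0.78 and 0.42 (adjusted p = 0.0482, 0.111 to 0.192 without a library and 0.0686 with libraries centred on their medians). SERF1A and SERF1B are near-identical neighbours on chromosome 5, so that reads may have been split between them and their values are uncertain. SERF1A had 0.49 and 0.59 in shPABPN1 and 1 and 1 in shSF3B4 (adjusted p = 0.0351, or 0.0798 to 0.163 without a library). SERF1B had 0.54 and 0.49 in shPABPN1 and 1 and 0.94 in shSF3B4 (adjusted p = 0.0132, or 0.0502 to 0.079 without a library). The non-coding AL008723.2 (adjusted p = 0.0462, or 0.0809 to 0.191) and the skeletal muscle actin gene ACTA1 (adjusted p = 0.046, or 0.0933 to 0.194) differed by −0.57 and −0.43.

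**Figure D2:**
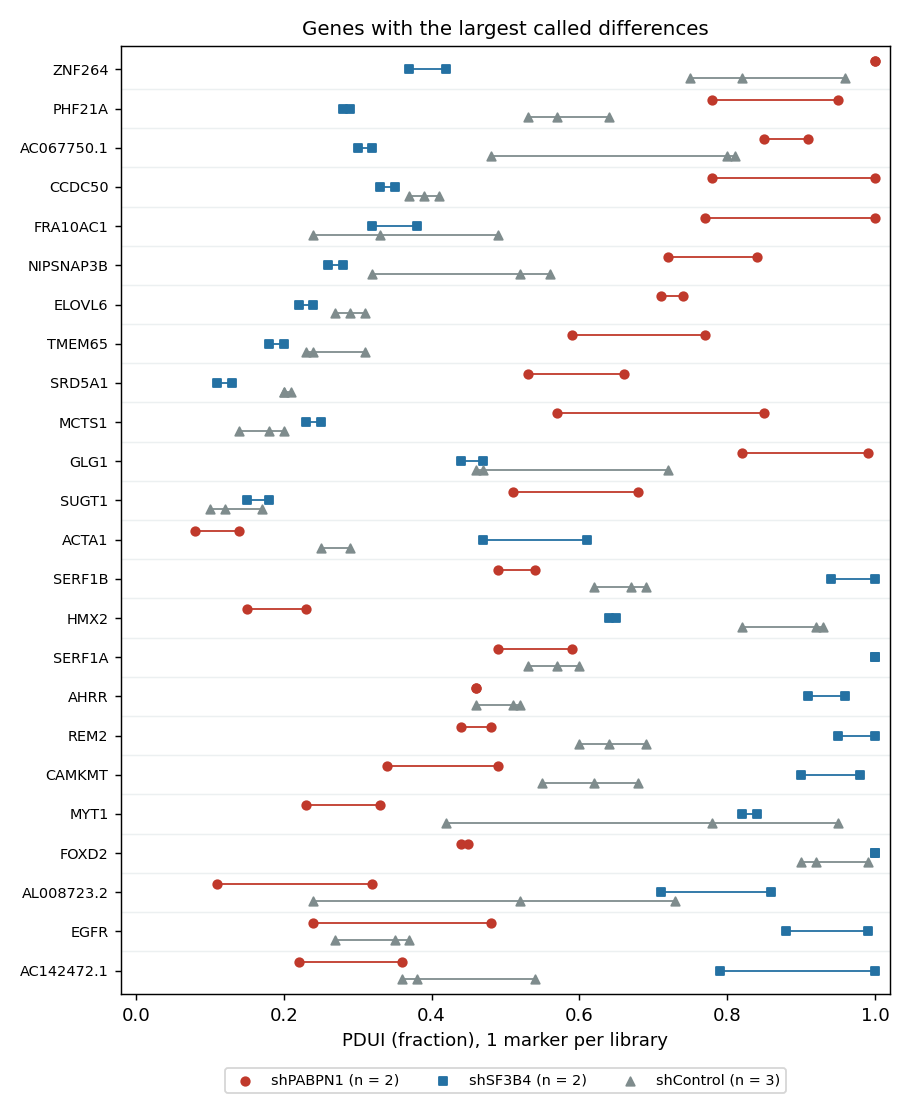
PDUI (horizontal axis, fraction) of the 24 genes with the largest called differences among those whose last exon overlaps no other gene, 1 marker per library, with shPABPN1 above shSF3B4 above shControl in each gene, lines joining the lowest and highest library of a group, and 12 genes per direction. The shPABPN1 and shSF3B4 markers do not overlap in any gene, which the choice of genes fixed. The shControl markers (2 for ACTA1, 3 otherwise) lie beside one knockdown, between them or outside both, above in HMX2 and below in MCTS1.

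RPAP2, TM9SF3 and BICRAL had the smallest p of all genes, with smaller differences. RPAP2, a phosphatase of the RNA polymerase II tail, stood at 0.1 and 0.06 in shPABPN1, 0.37 and 0.37 in shSF3B4 and 0.04, 0.05 and 0.04 in shControl (direct difference −0.29, adjusted p = 9.58e-06). TM9SF3, a membrane protein of the secretory pathway, stood at 0.48 and 0.46 in shPABPN1, 0.2 and 0.19 in shSF3B4 and 0.31, 0.33 and 0.31 in shControl (direct difference 0.275, adjusted p = 9.58e-06). The control libraries of RPAP2 lay below the shPABPN1 values, and those of TM9SF3 lay between the knockdowns. BICRAL, a subunit of a SWI/SNF chromatin remodelling complex, stood at 1 and 1 in shPABPN1, 0.66 and 0.72 in shSF3B4 and 1 in all 3 shControl libraries (direct difference 0.31, adjusted p = 1.4e-05). Each of the 8 libraries of the other knockdowns also had 1 for BICRAL, so its value was below 1 in the shSF3B4 libraries only. At 1, the upper limit of the scale, the other groups had no spread. They entered the pooled spread of BICRAL all the same, so its p is uncertain.

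The annotated end of the last exon is shown for 6 of these genes, to place the distal side of the measurement and to show which poly(A) signal stands there. Each sequence is 30 bases of the GENCODE 29 transcript on the RNA's strand, 5' to 3', with the signal in capitals, on build GRCh38. ZNF264 (chr19:57222813-57222842, plus strand), ELOVL6 (chr4:110045860-110045889, minus strand), GLG1 (chr16:74447441-74447470, minus strand) and SUGT1 (chr13:52700877-52700906, plus strand) were higher in shPABPN1. FOXD2 (chr1:47440659-47440688, plus strand) and HMX2 (chr10:123150641-123150670, plus strand) were lower in shPABPN1.
ZNF264: agataacttgtgATTAAAgagtatgttatt
ELOVL6: attaaaattaaaAATAAAatcataactttt
GLG1: atgggagaatttAATAAAgagtttgcaggt
SUGT1: gtatttcagtatAATAAAatctgatgtaag
FOXD2: tggtgtcgattgAATAAAtgtatgtgaact
HMX2: aaaagaaaaaaaAATAAAacattttaaaca

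The signal of ZNF264 was the variant ATTAAA, and the other 5 had AATAAA. From the last base of the signal to the annotated end there were 14 bases in HMX2, 15 in SUGT1 and FOXD2, 16 in ZNF264 and 26 in ELOVL6 and GLG1. Whether the annotated end is the distal site that PDUI measured is not given by the table. Among all genes whose transcript version matched, AATAAA stood in the last 50 bases of the transcript, read on its own strand, in 60.9% of 243 genes called higher and 56.7% of 305 called lower, against 59.1% of 6441 tested. ATTAAA, counted where AATAAA was absent, stood there in 14% of genes called higher, 11.5% called lower and 12.4% of all. Both groups of called genes thus lay near the share of all genes.

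The called genes differed in the length of their last exon. The median was 3484 bases for the genes higher in shPABPN1 and 1515 bases for those lower in shPABPN1, against 1408 bases for all genes tested. Of 2527 genes with a last exon over 3000 bases, 319 (12.6%) were higher and 167 (6.61%) lower in shPABPN1, with a median difference of 0. Of 4560 genes with a last exon under 1000 bases, 70 (1.54%) were higher and 236 (5.18%) lower, with a median difference of −0.05. The 4560 genes between these lengths had 156 (3.42%) higher and 236 (5.18%) lower. The excess of higher over lower calls in long last exons, 6.02 percentage points, was 12.9 with libraries centred on their medians, and the deficit in short ones, −3.64, turned to 1.23.

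The pattern was also present among genes of intermediate use and among those free of overlapping annotation. Where the shControl mean was 0.2 to 0.8, 176 of 1086 genes with a last exon over 3000 bases (16.2%) were higher and 70 (6.45%) lower. In the same range, 23 of 3197 genes with a last exon under 1000 bases (0.719%) were higher and 161 (5.04%) lower. Among genes whose last exon overlaps no other gene, 251 of 1880 with a last exon over 3000 bases (13.4%) and 36 of 3284 under 1000 bases (1.1%) were higher. The table gives no positions of the proximal and distal sites, so the distance between them was not analysed here.

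Per library, the difference in mean PDUI between genes with last exons over 3000 and under 1000 bases was 0.118 and 0.114 in shPABPN1 and 0.049 and 0.053 in shSF3B4. It was 0.093, 0.043 and 0.043 in shControl, and 0.035 to 0.068 in the other 8 knockdown libraries. Both shPABPN1 libraries lay above every other library, and shControl replicate 1 was the next highest. The components were a mean of 0.58 and 0.581 for long and 0.462 and 0.467 for short last exons in shPABPN1, against 0.561 and 0.572 for long and 0.512 and 0.519 for short ones in shSF3B4. In shControl replicate 1 they were 0.546 for long and 0.453 for short last exons, so that its low library mean, like that of shPABPN1, went with low values in short last exons. The part of the library's overall level in the length pattern was not tested.

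**Figure D3:**
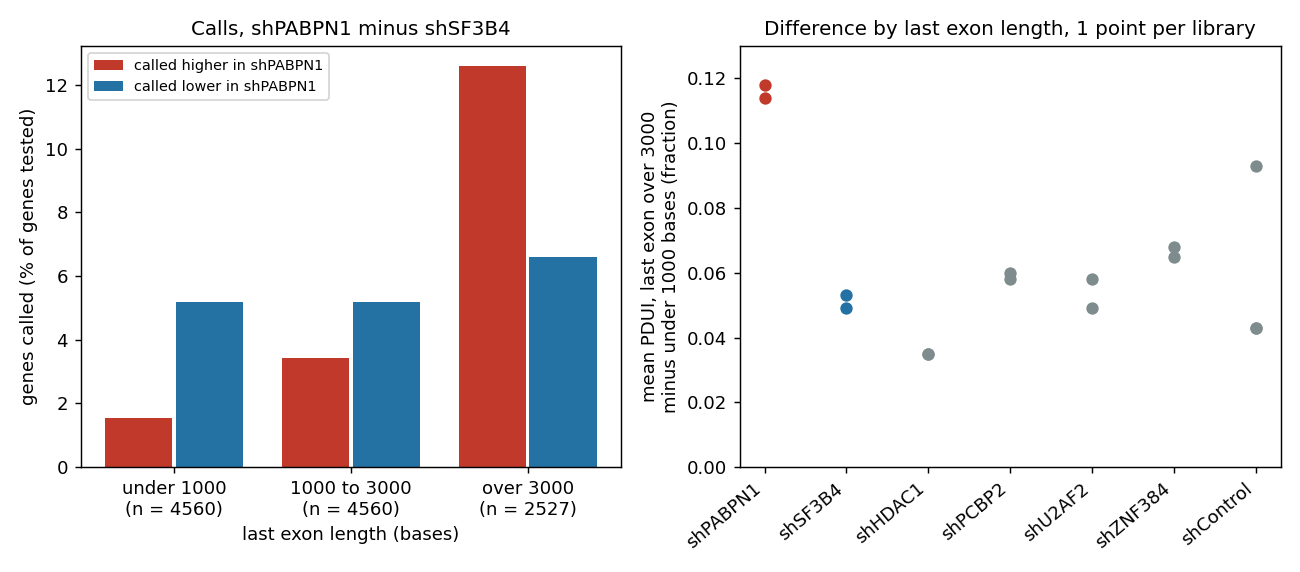
Left, share of tested genes called higher or lower in shPABPN1 (vertical axis, %) by length of the last exon, with bars from 0. Right, mean PDUI of genes with a last exon over 3000 bases minus that of genes under 1000 bases (vertical axis, fraction), 1 point per library. The share called higher is 12.6% in long and 1.54% in short last exons, and the shPABPN1 libraries, at 0.118 and 0.114, lie above the shControl library at 0.093 and all others.

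Calls were most frequent among genes that used the distal site little in shControl. Where the shControl mean was under 0.2, 221 of 2020 genes (10.9%) were higher and 236 (11.7%) lower in shPABPN1, with a median difference of −0.01. Between 0.2 and 0.8, 285 of 6778 (4.2%) were higher and 353 (5.21%) lower, with a median difference of −0.055. Over 0.8, 57 of 3065 (1.86%) were higher and 55 (1.79%) lower, with a median difference of 0. Genes near a PDUI of 0 can have a small SE, such as 0.0023 in SKP1 and 0.00218 in NDUFA9. The median SE over all tested genes was 0.0517. Small differences can thus be called near 0, and the part of the spread in these shares was not tested.

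The groups outside the comparison lay on different sides for different genes. For genes lower in shPABPN1, the shControl mean was nearer to shPABPN1 in 69.7% and nearer to shSF3B4 in 29.6%. For genes higher in shPABPN1, it was nearer to shPABPN1 in 29% and nearer to shSF3B4 in 70.3%. In both directions, then, the control mean lay more often with the knockdown that had the lower PDUI. Over all tested genes it was nearer to shPABPN1 in 42.4% and to shSF3B4 in 49.5%. Without shControl replicate 1 the shares nearer to shPABPN1 were 61.7% for genes lower in it and 29% for genes higher in it, against 36.8% of all. The shHDAC1 means had 58.9% and 23.8% nearer to shPABPN1 for lower and higher genes.

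The shU2AF2 means were nearer to shPABPN1 in 37.5% of genes higher and 32.2% of genes lower in shPABPN1, against 36.6% of all. They were nearer to shSF3B4 in 60.7% of genes higher and 65.6% of genes lower, against 54.3% of all. The rest were ties, which were more frequent over all genes (1073 of 11886) than in genes higher (10 of 563) or lower (14 of 646). The shPCBP2 means were nearer to shPABPN1 in 64.1% of genes higher and 60.2% of genes lower, against 41.8% of all. For shZNF384 the shares nearer to shPABPN1 were 61.6% and 52.2%, against 37.4% of all. The knockdowns lay on opposite sides of the whole control range in 3.36% of the 11666 tested genes with 3 shControl values. In 212 genes (1.82%) both shPABPN1 libraries lay above and both shSF3B4 libraries below all control libraries, and in 180 (1.54%) the sides were exchanged. Among the 1201 called genes, whose call itself selects for separated groups, the counts were 188 and 118.

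**Figure D4:**
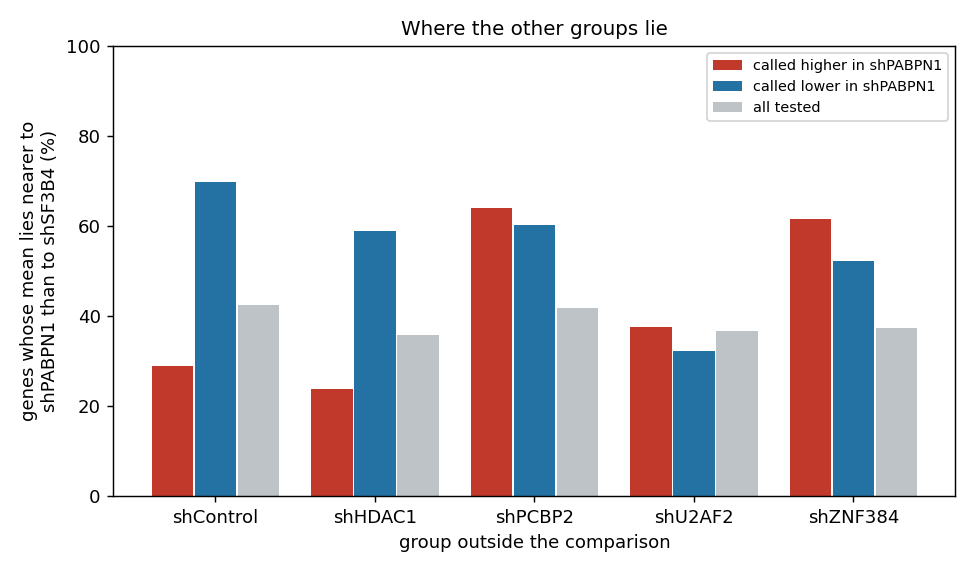
Share of genes (vertical axis, %) whose mean PDUI in a group outside the comparison lies nearer to the shPABPN1 mean than to the shSF3B4 mean, for genes called higher in shPABPN1, called lower in shPABPN1 and all tested, with bars from 0. The shControl bars are 29%, 69.7% and 42.4%, the shPCBP2 bars 64.1%, 60.2% and 41.8%, and the shU2AF2 bars 37.5%, 32.2% and 36.6%.

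The targeted genes themselves were not called. PABPN1 stood at 0.58 and 0.49 in shPABPN1, 0.49 and 0.54 in shSF3B4 and 0.51, 0.47 and 0.56 in shControl (difference 0.02, adjusted p = 0.861), and its last exon is shared with the read-through gene BCL2L2-PABPN1. SF3B4 stood at 0.48 and 0.48 in shPABPN1, 0.55 and 0.56 in shSF3B4 and 0.49, 0.58 and 0.53 in shControl (difference −0.075, adjusted p = 0.188). Neither value measures how much of the targeted RNA was left.

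Gene lists were counted beside the background of 4.72% higher, 5.42% lower and a median difference of −0.025 over all genes, without a test of the list. Calls were more frequent among genes with long last exons and among genes with low shControl values. The background was not matched to the lists for either. Among the lists of splicing regulators, SR protein genes were called most often. SR proteins bind exonic enhancers and recruit the splicing machinery, and several also act in 3' end formation and export. Of 22 tested, 7 were higher and 3 lower in shPABPN1 and 12 were not called (45.5% called, against 10.1% of all genes, median difference 0.0025). With libraries centred on their medians, 6 were higher and 1 lower.

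SREK1, a splicing regulatory protein that binds other SR proteins, stood at 0.38 and 0.4 in shPABPN1, 0.16 and 0.16 in shSF3B4 and 0.3, 0.29 and 0.31 in shControl (direct difference 0.23, SE 0.0123, adjusted p = 1.4e-05). PPIG, a nuclear cyclophilin with an RS domain, stood at 0.38 and 0.39 in shPABPN1, 0.19 and 0.19 in shSF3B4 and 0.28, 0.27 and 0.29 in shControl (direct difference 0.195, adjusted p = 0.000744). In both the control lay between the knockdowns without overlap. PNISR, an SR-related protein, went the other way with 0.25 and 0.28 in shPABPN1, 0.41 and 0.4 in shSF3B4 and 0.25, 0.27 and 0.3 in shControl (direct difference −0.14, adjusted p = 0.00083).

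The remaining called SR genes are named with their values known. SRSF10, a splicing repressor when dephosphorylated, stood at 0.48 and 0.45 in shPABPN1, 0.25 and 0.26 in shSF3B4 and 0.51, 0.54 and 0.52 in shControl (direct difference 0.21, adjusted p = 0.00083). SRSF11 stood at 0.26 and 0.23 in shPABPN1 and 0.15 and 0.13 in shSF3B4 (adjusted p = 0.00083). SRSF1 and SRSF2 were higher in shPABPN1 too, by 0.14 and 0.145, but their last exons overlap AC015813.2 and MFSD11, so their values are uncertain. SRSF7 was higher by 0.055, while SRSF5 (−0.055) and SRSF3 (−0.015, or 0.035 with libraries centred on their medians) were lower. None of these 3 was called with libraries centred on their medians (adjusted p = 0.094, 0.906 and 0.36). Leaving out 1 library ended the calls of SRSF2, SRSF5 and SRSF7 in all 4 cases and of SRSF3 in 3, with adjusted p up to 0.134, 0.148, 0.175 and 0.115.

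**Figure D5:**
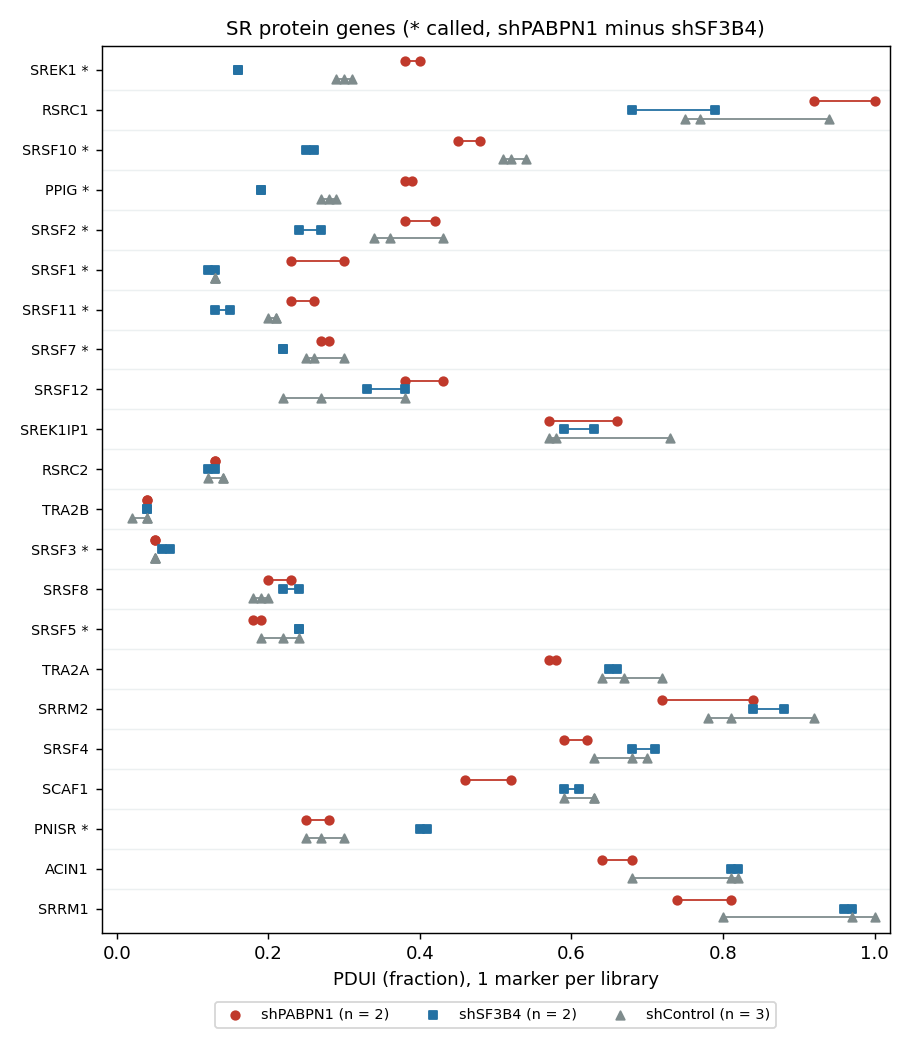
PDUI (horizontal axis, fraction) of the 22 SR protein genes tested, ordered by the difference shPABPN1 minus shSF3B4 from the largest at the top, 1 marker per library, with shPABPN1 above shSF3B4 above shControl in each gene and an asterisk beside called genes. The 7 genes called higher include SREK1, SRSF10 and PPIG, and the 3 called lower include PNISR.

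The list that holds the U2 snRNP, to which SF3B4 belongs, had more calls lower than higher as deposited. Of 29 genes for the U2 snRNP and 3' splice site factors, 1 was higher and 5 were lower in shPABPN1. The other 23 were not called (20.7% called, median difference −0.045). SF3A1, of the U2 snRNP subcomplex SF3a, stood at 0.25 and 0.24 in shPABPN1 and 0.3 and 0.32 in shSF3B4 (adjusted p = 0.00202, or 0.773 with libraries centred on their medians). SF3B1, the scaffold of SF3b, stood at 0.07 and 0.07 in shPABPN1 and 0.11 and 0.11 in shSF3B4 (direct difference −0.04, adjusted p = 0.00224), where libraries centred on their medians gave 0.01 (adjusted p = 0.837). RBM17, a splicing factor that contacts SF3b, was higher, with 0.38 and 0.39 in shPABPN1 and 0.27 and 0.27 in shSF3B4 (adjusted p = 0.00982). The further members, SNRPB2, SF3B6 and RBM5, were lower by 0.045 to 0.08, and with libraries centred on their medians none was called and SNRPB2 turned to 0.005. Centred on medians, 1 member was higher and 0 were lower, so the balance of this list depends on the scale. Without 1 library, RBM17 and SF3B6 lost their calls in 3 cases and SNRPB2 and RBM5 in all 4 (adjusted p up to 0.053, 0.181, 0.13 and 0.135).

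Of 16 genes for the U1 snRNP and core snRNP proteins, 3 were higher and 3 lower (37.5% called, median difference −0.042), and 1 was higher and 0 lower with libraries centred on their medians. LUC7L3, which associates with the U1 snRNP, stood at 0.07 and 0.06 in shPABPN1 and 0.11 and 0.13 in shSF3B4 (adjusted p = 0.00353, or 0.911 with libraries centred on their medians), and TIAL1, which binds U-rich RNA, at 0.07 and 0.08 in shPABPN1 and 0.11 and 0.12 in shSF3B4 (adjusted p = 0.0115). The difference of TIAL1, −0.04, was 0.01 with libraries centred on their medians, and its call ended without shPABPN1 replicate 1 or without shSF3B4 replicate 2 (adjusted p up to 0.0771). SNRPE, SNRPC and ZMAT5 differed by at most 0.055 in size, lost their calls with libraries centred on their medians, and lost them in at least 3 of the 4 cases (adjusted p up to 0.0763, 0.113 and 0.166).

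The cleavage and polyadenylation factors had 2 of 26 genes higher and 1 lower (11.5% called, median difference 0), or 2 and 0 with libraries centred on their medians. CPSF6, the subunit of cleavage factor I that partners the UGUA-binding subunit, had a PDUI of 1 and 1 in shPABPN1, 0.42 and 0.41 in shSF3B4 and 0.59, 0.64 and 0.56 in shControl. Its difference of 0.585 (adjusted p = 0.000108) was on both sides of the control, and its last exon overlaps the microRNA gene MIR1279. WDR33, the subunit that reads the poly(A) signal, stood at 0.11 and 0.14 in shPABPN1, 0.23 and 0.27 in shSF3B4 and 0.2, 0.17 and 0.17 in shControl (direct difference −0.125, adjusted p = 0.00301, or 0.176 with libraries centred on their medians), with a last exon that overlaps SFT2D3. PAPOLG, a nuclear poly(A) polymerase, stood at 0.23 and 0.29 in shPABPN1 and 0.14 and 0.14 in shSF3B4 (adjusted p = 0.0228), and its call ended in 3 of 4 cases without 1 library (adjusted p up to 0.118).

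Of 22 genes for poly(A) binding and nuclear RNA decay, 2 were higher and 0 lower (9.09% called, median difference −0.018), or 4 and 0 with libraries centred on their medians. EXOSC6, a subunit of the RNA exosome, stood at 0.4 and 0.42 in shPABPN1, 0.21 and 0.21 in shSF3B4 and 0.26, 0.26 and 0.25 in shControl (direct difference 0.2, SE 0.00974, adjusted p = 1.4e-05). MTREX, the helicase that feeds RNA to the nuclear exosome, stood at 0.18 and 0.14 in shPABPN1 and 0.04 and 0.05 in shSF3B4 (adjusted p = 0.00083), with a last exon that overlaps PLPP1. Of 19 mRNA export genes, 0 were higher and 2 lower (10.5% called, median difference −0.045), and none was called with libraries centred on their medians. These were the export receptor NXF1, at 0.41 and 0.37 in shPABPN1 and 0.53 and 0.5 in shSF3B4, and the TREX component CHTOP, at 0.45 and 0.41 in shPABPN1 and 0.55 and 0.52 in shSF3B4. Without 1 library NXF1 lost its call in 2 cases and CHTOP in all 4 (adjusted p up to 0.0889 and 0.157, against 0.0146 and 0.0331 with all libraries).

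Of 39 hnRNP and KH-domain genes, 2 were higher and 2 lower (10.3% called, median difference −0.04), or 2 and 0 with libraries centred on their medians. HNRNPA3, which binds pre-mRNA, stood at 0.48 and 0.49 in shPABPN1, 0.33 and 0.34 in shSF3B4 and 0.27 in all 3 shControl libraries (direct difference 0.15, adjusted p = 0.000174). SYNCRIP stood at 0.52 and 0.54 in shPABPN1 and 0.38 and 0.37 in shSF3B4 (adjusted p = 0.00403), with a last exon that overlaps AL589666.1. HNRNPD, a regulator of AU-rich mRNAs, stood at 0.05 and 0.05 in shPABPN1 and 0.08 and 0.08 in shSF3B4 (adjusted p = 0.00561), and its difference of −0.03 was 0.02 with libraries centred on their medians. FXR2, a relative of FMRP, was lower by 0.185 (adjusted p = 0.0465, or 0.132 with libraries centred on their medians) and lost its call without any 1 of the 4 libraries (adjusted p up to 0.18).

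The microRNA pathway was called in 8 of 24 genes, 6 higher and 2 lower (33.3% called, median difference −0.018), and 6 were higher and 1 lower with libraries centred on their medians. CNOT6, a catalytic deadenylase, stood at 0.66 and 0.73 in shPABPN1 and 0.46 and 0.45 in shSF3B4 (adjusted p = 0.00275). AGO1, an Argonaute, stood at 1 and 1 in shPABPN1 and 0.8 and 0.78 in shSF3B4 (adjusted p = 0.0105), with a last exon that overlaps AL139286.2. TNRC6B, the scaffold that Argonautes bind, CNOT6L, DICER1 and DROSHA were also higher, by 0.285, 0.32, 0.24 and 0.05, and AGO3 was lower by 0.345. The paralogs AGO1 and AGO3 thus differed in opposite directions. Without 1 library, AGO1 and CNOT6L lost their calls in 2 cases, TNRC6B in 3 and AGO3, DICER1 and DROSHA in all 4 (adjusted p up to 0.0626, 0.1, 0.0677, 0.152, 0.167 and 0.134). Centred on medians, DROSHA had an adjusted p of 0.0502.

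Of 51 genes known for alternative 3' untranslated regions, 6 were higher and 3 lower (17.6% called, median difference 0), and centring on medians gave 6 and 1. CD47, whose long 3' untranslated region directs the protein to the cell surface, stood at 0.58 and 0.52 in shPABPN1, 0.3 and 0.26 in shSF3B4 and 0.31, 0.26 and 0.25 in shControl (direct difference 0.27, adjusted p = 0.00053). The control lay with shSF3B4. HMGB1, a chromatin protein, stood at 0.11 and 0.11 in shPABPN1 and 0.17 and 0.19 in shSF3B4 (adjusted p = 0.00128, or 0.654 with libraries centred on their medians).

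Among 46 genes of receptor tyrosine kinase, RAS and mTOR signalling, 4 were higher and 6 lower (21.7% called, median difference −0.05), or 4 and 2 with libraries centred on their medians. EIF4EBP2, an inhibitor of translation initiation downstream of mTOR, stood at 0.68 and 0.67 in shPABPN1, 0.29 and 0.29 in shSF3B4 and 0.35, 0.42 and 0.4 in shControl (direct difference 0.385, adjusted p = 1.94e-05). AKT2, a kinase upstream of mTOR, stood at 0.36 and 0.36 in shPABPN1, 0.18 and 0.2 in shSF3B4 and 0.19, 0.2 and 0.2 in shControl (direct difference 0.17, adjusted p = 1.4e-05). The control of AKT2 lay beside shSF3B4, and that of EIF4EBP2 lay between the knockdowns, nearer to shSF3B4. TSC1, which restrains mTOR, stood at 0.59 and 0.74 in shPABPN1, 0.97 and 1 in shSF3B4 and 0.58, 0.59 and 0.64 in shControl (direct difference −0.32, adjusted p = 0.00716). IGF1R, another receptor kinase, was higher by 0.34 (adjusted p = 0.00963, or up to 0.0592 without 1 library), and the adaptor GRB2 was lower by 0.12 (adjusted p = 0.00181, or 0.141 with libraries centred on their medians).

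Of 53 cell cycle genes, 0 were higher and 6 lower (11.3% called, near the 10.1% of all genes, median difference −0.05). With libraries centred on their medians, 1 was higher and 1 lower. CDT1, which licenses replication origins, stood at 0.22 and 0.24 in shPABPN1, 0.39 and 0.42 in shSF3B4 and 0.24 in all 3 shControl libraries (direct difference −0.175, adjusted p = 0.000509). CDK1, the mitotic kinase, stood at 0.76 and 0.8 in shPABPN1 and 0.94 and 0.91 in shSF3B4 (adjusted p = 0.0168). CDC20, an activator of the anaphase-promoting complex, stood at 0.25 and 0.27 in shPABPN1 and 0.32 and 0.34 in shSF3B4 (adjusted p = 0.0246). PCNA, GMNN and ORC4 were lower by 0.115, 0.09 and 0.05. With libraries centred on their medians, CDT1 alone of these 6 was called, and the adjusted p of the other five was 0.0839 or more. Apart from CDT1, each lost its call without at least 2 of the 4 libraries in turn, with adjusted p up to 0.0989 for CDK1, 0.133 for CDC20, 0.13 for PCNA, 0.156 for GMNN and 0.24 for ORC4.

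Among 43 genes for RNA polymerase II elongation and termination, 1 was higher and 4 were lower (11.6% called, median difference −0.035), against 3 and 1 with libraries centred on their medians. INTS11, the endonuclease of the Integrator complex, stood at 0.4 and 0.43 in shPABPN1 and 0.6 and 0.6 in shSF3B4 (adjusted p = 0.00254), with a last exon that overlaps PUSL1. INTS7, another Integrator subunit, stood at 0.37 and 0.38 in shPABPN1 and 0.21 and 0.19 in shSF3B4 (adjusted p = 0.00982, or 0.0616 at most without 1 library).

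Of 59 neurodevelopmental disorder genes, 3 were higher and 6 lower (15.3% called, median difference −0.015), and 4 and 1 with libraries centred on their medians. Beside PHF21A and TSC1 these included GIGYF2, a translational repressor, at 0.5 and 0.43 in shPABPN1 and 0.14 and 0.17 in shSF3B4 (adjusted p = 0.000639), with a last exon that overlaps SNORC. NIPBL, the cohesin loader, stood at 0.14 and 0.15 in shPABPN1 and 0.24 and 0.23 in shSF3B4 (adjusted p = 0.00211, or 0.25 with libraries centred on their medians). MED13, of the Mediator kinase module, was below the control in both knockdowns, at 0.53 and 0.59 in shPABPN1, 0.87 and 0.73 in shSF3B4 and 1, 0.98 and 1 in shControl (adjusted p of the direct difference = 0.0219, up to 0.12 without 1 library and 0.0945 with libraries centred on their medians).

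Rab and vesicle traffic genes were called in 17 of 63 cases, 12 higher and 5 lower (27% called, median difference −0.02), and 14 and 2 with libraries centred on their medians. Rab proteins are small GTPases that mark compartments and steer vesicles between them. The 3 with the smallest p each overlap another gene, so their values are uncertain. AP2A1, of the clathrin adaptor AP-2, stood at 0.25 and 0.18 in shPABPN1, 0.8 and 0.81 in shSF3B4 and 0.07, 0.15 and 0.16 in shControl (direct difference −0.59, adjusted p = 1.95e-05, overlap with FUZ). VPS53, of a Golgi tethering complex, stood at 0.28 and 0.37 in shPABPN1, 1 and 1 in shSF3B4 and 0.26, 0.33 and 0.43 in shControl (direct difference −0.675, adjusted p = 0.000181, overlap with AC015853.2). RAB21, an endosomal Rab, was higher by 0.14 (adjusted p = 0.00212, overlap with AC089984.1).

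The called members without an overlapping gene are named with their values known. RAB22A stood at 0.24 and 0.19 in shPABPN1 and 0.09 and 0.11 in shSF3B4 (adjusted p = 0.00339), and RAB18 at 0.28 and 0.22 in shPABPN1 and 0.11 and 0.1 in shSF3B4 (adjusted p = 0.00522). SEC22B, a vesicle SNARE, stood at 0.49 and 0.47 in shPABPN1 and 0.3 and 0.35 in shSF3B4 (adjusted p = 0.00523), and AP2A2, the paralog of AP2A1, at 0.41 and 0.56 in shPABPN1 and 0.23 and 0.24 in shSF3B4 (adjusted p = 0.00569). Thus AP2A1 was lower and AP2A2 higher in shPABPN1. These 4 calls and that of RAB11A (0.045 higher) held without any 1 library. RAB31, VAMP4, RAB5B, STX7, CLTC, SNX2, RAB14 and STX12 lost theirs in 2 to 4 cases, and the adjusted p was highest for STX12, at 0.213. With libraries centred on their medians RAB31 was not called (adjusted p = 0.0983), and CLTC and SNX2 turned from −0.02 to 0.03 each.

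Ubiquitin ligases and E2 enzymes attach ubiquitin to proteins, and of 59 such genes 4 were higher and 5 lower (15.3% called, median difference −0.02), or 5 and 0 with libraries centred on their medians. TRIM33, a ligase of the transforming growth factor pathway, stood at 1 and 1 in shPABPN1, 0.65 and 0.57 in shSF3B4 and 0.99, 0.96 and 0.92 in shControl (direct difference 0.39, adjusted p = 0.000509). UBE2H, a ubiquitin-conjugating enzyme, stood at 1 and 1 in shPABPN1 and 0.85 and 0.81 in shSF3B4 (adjusted p = 0.00124). SKP1, the adaptor of SCF ligases, stood at 0.03 and 0.03 in shPABPN1 and 0.05 and 0.05 in shSF3B4 (adjusted p = 0.00083), but its last exon overlaps TCF7 and its difference of −0.02 was 0.03 with libraries centred on their medians. The libraries within each group had equal values for SKP1, so no group had a spread and its p is uncertain.

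Among 50 oxidative phosphorylation genes, 3 were higher and 5 lower (16% called, median difference −0.013), or 1 and 0 with libraries centred on their medians. NDUFV3, of complex I, stood at 0.29 and 0.33 in shPABPN1 and 0.13 and 0.14 in shSF3B4 (adjusted p = 8.39e-05). UQCRB, of complex III, stood at 0.03 and 0.03 in shPABPN1 and 0.06 and 0.08 in shSF3B4 (adjusted p = 0.00606), a difference of −0.04 that was 0.01 with libraries centred on their medians. NDUFA9, at 0.03 and 0.03 in shPABPN1 and 0.02 and 0.02 in shSF3B4, differed by 0.01, the width of the last decimal (adjusted p = 0.0213, up to 0.0843 without 1 library and 0.141 with libraries centred on their medians). No group had a spread between its libraries for NDUFA9, so its p is uncertain.

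Of 51 cytosolic ribosomal protein genes, 7 were higher and 3 lower (19.6% called, median difference −0.005), and 6 and 0 with libraries centred on their medians. These genes have many processed pseudogenes, so reads may be shared and the values are uncertain. RPL37 stood at 0.37 and 0.31 in shPABPN1 and 0.12 and 0.14 in shSF3B4 (adjusted p = 0.000632). RPS15A stood at 0.11 and 0.1 in shPABPN1, 0.03 and 0.03 in shSF3B4 and 0.03 in all 3 shControl libraries (adjusted p = 3.34e-05). RPL14 stood at 0.06 and 0.07 in shPABPN1 and 0.03 and 0.03 in shSF3B4 (adjusted p = 0.000854). Of 67 mitochondrial ribosomal protein genes, 5 were higher and 5 lower (14.9% called, median difference −0.03), or 7 and 1 with libraries centred on their medians. Among them was MRPL42 with 0.37 and 0.28 in shPABPN1 and 0.1 and 0.11 in shSF3B4 (adjusted p = 0.000854). MRPL50 was higher by 0.115 (adjusted p = 0.00105) and MRPL28 lower by 0.06 (adjusted p = 0.000956, or 0.833 with libraries centred on their medians).

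Of 313 zinc finger ZNF genes, 17 were higher and 8 lower (7.99% called, median difference −0.01), and 20 and 1 with libraries centred on their medians. ZNF562 stood at 1 and 1 in shPABPN1, 0.72 and 0.77 in shSF3B4 and 1 in all 3 shControl libraries (direct difference 0.255, adjusted p = 1.4e-05). The shHDAC1, shPCBP2 and shZNF384 libraries of ZNF562 also had 1, the upper limit. Groups without spread thus entered its pooled spread, and its p is uncertain. ZNF326, which takes part in splicing together with RNA polymerase II, stood at 0.54 and 0.53 in shPABPN1, 0.15 and 0.16 in shSF3B4 and 0.39, 0.43 and 0.37 in shControl (direct difference 0.38, adjusted p = 0.000187). ZNF207, a spindle and splicing factor, stood at 0.15 and 0.18 in shPABPN1 and 0.06 and 0.06 in shSF3B4 (adjusted p = 0.000136). The shControl values of ZNF562 lay with shPABPN1 and those of ZNF326 between the knockdowns.

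Of 193 antisense and divergent non-coding genes, 9 were higher and 4 lower (6.74% called, against 10.1% of all genes), or 12 and 2 with libraries centred on their medians. Of 64 LINC genes 1 was higher and 0 lower (1.56%). Of 1206 clone-named genes 51 were higher and 41 lower (7.63%), or 78 and 16 with libraries centred. Many antisense genes overlap the gene on the other strand, and without knowledge of strand the reads of the pair cannot be told apart. ST20-AS1 stood at 0.05 and 0.05 in shPABPN1 and 0.25 and 0.22 in shSF3B4 (adjusted p = 0.000195). IDI2-AS1 stood at 0.49 and 0.46 in shPABPN1 and 0.16 and 0.23 in shSF3B4 (adjusted p = 0.000496). LINC01970, the 1 LINC gene called, stood at 0.59 and 0.54 in shPABPN1 and 0.24 and 0.31 in shSF3B4 (adjusted p = 0.027), and lost its call without any 1 of the 4 libraries (adjusted p up to 0.138). AL353708.3 had the largest difference of those named here, with 1 and 0.99 in shPABPN1, 0.22 and 0.37 in shSF3B4 and 1 in all 3 shControl libraries (direct difference 0.7, adjusted p = 7.33e-05). Its last exon overlaps TOR1AIP1, so its value is uncertain. PAXIP1-AS2, AC010327.6 and AC008124.1 were higher by 0.06, 0.05 and 0.16 (adjusted p = 0.00287, 1.4e-05 and 3.69e-05). The last exon of PAXIP1-AS2 overlaps PAXIP1 and that of AC010327.6 overlaps PPP6R1 and TMEM86B, so both values are uncertain. AC010327.6 also had no spread in any group, so its p is uncertain.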

How the data were processed

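The authors deposited PDUI as a fraction per gene and library, with 2 decimals, a lowest value of 0.001 and missing entries; whole values such as 1 are deposited as such. The build is hg38 per the submitters' processing notes, while the aligner and PDUI program were not given in the sources used here. Libraries were grouped by title. Because titles and descriptions disagree on the numbering of shSF3B4, its columns count as that group without a tie to single samples, and keep the column's number. Nothing says that replicates were separate cultures, so p-values measure only the spread between libraries.

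PDUI entered limma 3.58.1 (R 4.3.3) as deposited, with 1 mean per group over all 15 libraries, eBayes with a trend, two-sided tests and Benjamini-Hochberg adjustment over the 11920 genes. A gene without a value in some other library was fitted on the rest. There were 8 residual degrees of freedom at most, the prior added 1.07, and 460 genes had no spread in any group. Tables were handled with pandas 2.3.3 in Python 3.11.15. The fit was tested on simulated data, where 4 of 11720 genes without a difference were called. True differences of 0.1, 0.2, 0.3 and 0.4 were called in 2%, 24%, 52% and 78% of 50 genes each. These genes were of intermediate PDUI, and no shift of whole libraries was simulated. The simulated noise was given a least size in every gene, so it did not follow the 460 genes without spread.

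Transcripts were matched to GENCODE 29 by identifier (97.3%, and 54.9% with the same version, whose sequences were used). Named genes are the 12 per direction with the largest called difference, groups apart and no overlapping exon, up to 3 called members of each of 23 lists and the 5 genes overall with the smallest p, and the targeted genes, 89 in all. The comparison, lists and rule were chosen with earlier results of these data known. Alternatives covered the scale, the libraries in the fit, filters, the variance model and the omission of each of the 4 libraries compared and of shControl replicate 1. Some genes that the rule names are not reported here.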

Additional observations from a re-analysis of the deposited data

Results flagged for a closer look

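In 35 of the genes named, the libraries of the knockdowns lay on opposite sides of the control. All shPABPN1 libraries were on one side and all shSF3B4 libraries on the other side of the range of the 3 shControl libraries, and limma called the direct difference. The values that follow are PDUI differences, shPABPN1 minus shSF3B4.

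With shPABPN1 above and shSF3B4 below the control, the largest differences were those of ZNF264 (0.605), CPSF6 (0.585), PHF21A (0.58), AC067750.1 (0.57), CCDC50 (0.55), NIPSNAP3B (0.51), ELOVL6 (0.495) and TMEM65 (0.49). They were followed by SRD5A1 (0.475), TRIM33 (0.39), EIF4EBP2 (0.385), ZNF326 (0.38), GIGYF2 (0.31), IDI2-AS1 (0.28), TM9SF3 (0.275) and SREK1 (0.23). The smallest were those of EXOSC6 (0.2), PPIG (0.195), INTS7 (0.175), AC008124.1 (0.16), SYNCRIP (0.155), RAB21 (0.14), RBM17 (0.115), ZNF207 (0.105) and AC010327.6 (0.05). With shPABPN1 below and shSF3B4 above the control, the genes were FOXD2 (−0.555), CAMKMT (−0.525), REM2 (−0.515), SERF1B (−0.455), INTS11 (−0.185), ST20-AS1 (−0.185), CDK1 (−0.145), WDR33 (−0.125), NIPBL (−0.09) and MRPL28 (−0.06).

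Over all 11666 tested genes with 3 shControl values, 1.82% had the first arrangement and 1.54% the second. Among the 1201 called, which the call selects for separation, 188 and 118 did. FOXD2 is in the second set with shSF3B4 values of 1 and 1 just above a control library at 0.99, while TM9SF3 has gaps of over 0.1 on both sides. The arrangement is one of ranges and did not always go with differences from shControl called by limma. TM9SF3 had them in shPABPN1 (adjusted p = 9.57e-05) and in shSF3B4 (adjusted p = 0.000225). CCDC50 had none in shSF3B4 (adjusted p = 0.789), and TRIM33 none in shPABPN1 (adjusted p = 0.59). CAMKMT had none in shPABPN1 (adjusted p = 0.411) or shSF3B4 (adjusted p = 0.198). Because a suffix, nuc, marks the shControl library names alone, the position of the control and any difference in preparation cannot be told apart. The direct difference does not use the shControl means.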

How the results depend on the processing

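Against 1209 called, 563 higher and 646 lower, limma called 832 (695 higher, 137 lower) with libraries centred on their medians, 1029 (693 and 336) centred on their median deviation from the gene means, 1508 (563 and 945) with only the 12 knockdown libraries and 1705 (615 and 1090, with 1169 of at least 0.1) without shControl replicate 1. Of the 832 genes, 656 were among the 1209. Leaving out 1 of the 4 libraries gave 710 to 848 calls, 359 to 448 higher and 317 to 400 lower, and 512 to 607 of at least 0.1. With only the 4 libraries in the fit the counts were 0, in either direction and at 0.1 or more, with 2847 genes at an unadjusted p under 0.05 and a lowest adjusted p of 0.0758. The centring by median deviation, the fit without shControl replicate 1 and the restriction to genes without an overlapping last exon were chosen after seeing the data.

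Centring shifts every difference by 0.05 (medians) or 0.0213 (median deviations), so smaller differences turn by construction. The median difference over genes became 0.025 or −0.0037, and 66 or 14 genes called lower changed sign, and 0 called higher. Among the genes named, SF3B1 turned to 0.01, TIAL1 to 0.01, HNRNPD to 0.02, SKP1 to 0.03 and UQCRB to 0.01 with medians, and SKP1 to 0.00133 with median deviations. PABPN1, which was not called, stood between −0.025 (without shPABPN1 replicate 1) and 0.065 (without shPABPN1 replicate 2), with −0.005 without shSF3B4 replicate 1.

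The share higher minus the share lower, in percentage points, was 6.02 for last exons over 3000 bases, 12.9 and 11.2 under the 2 centrings, 6.21 without shControl replicate 1, 0 in the fits of 4 libraries and 3.56 to 5.46 with 1 library left out. For last exons under 1000 bases it was −3.64, and turned to 1.23 with medians. It was −0.417 with median deviations, −8.07 with the 12 knockdown libraries, −9.85 without shControl replicate 1, 0 in the fits of 4 libraries and −0.789 to −1.14 with 1 library left out. The difference of library means, −0.0291, was −0.0252 to −0.033 with 1 library left out and −0.055 from library medians.

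Same-numbered libraries of the 2 knockdowns did not deviate together (r = −0.0214 over 11920 genes), and the descriptions number shSF3B4 differently from titles and columns, so the numbers give no pairing. With a replicate block, 1058 genes were called on all libraries (483 higher, 575 lower), and 0 on the 4 libraries alone, with 2254 at an unadjusted p under 0.05.

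Of the 89 genes named, 70 kept direction and side of the threshold with libraries centred on medians, 86 with the 12 knockdown libraries, 84 on a logit scale, 84 without a variance trend and 70 to 74 with 1 library left out. Depth is unknown, so no limit that needs it is given.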
